A study of Mus musculus with 24 samples.

Results

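The integrated stress response genes described here are Atf4, the transcription factor at the centre of the response, and 9 genes known as its targets: Atf5, Ddit3, Ddit4, Asns, Chac1, Trib3, Sesn2, Psat1 and Phgdh. They were chosen by name, 10 of 21900 protein-coding genes in the RefSeq annotation of GRCm38.p6, and each gene stands for every accessible interval that overlaps its gene body extended by 20 kb on each side. That rule gave 157 of 299780 intervals in the table of untreated cells and 135 of 272268 in the table of treated cells. The assay was ATAC-seq, which maps open chromatin by letting Tn5 transposase cut and tag it, on E14 mouse embryonic stem cells in gelatin-coated culture with serum and LIF. Wild-type cells (WT) were set beside the Smad2 knockout clones Smad2_KO1 and Smad2_KO2, all labelled E14. Smad2 carries Nodal and Activin signals to the nucleus. Each line was taken without inhibitor (Ctrl) and after 12 hours in 200 nM INK128, an inhibitor of the mTOR kinase used to bring stem cells into a paused state (Paused), with 4 libraries of 50000 cells in each of the 6 groups. Each knockout line is labelled by a number alone, so each was taken as 1 clone, and the labels do not say whether the 4 libraries of a group came from separate cultures. The p-values below therefore measure the spread between libraries, which may be technical.

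In the integrated stress response, kinases that sense amino acid shortage, misfolded protein, heme lack or double-stranded RNA phosphorylate the translation factor eIF2 alpha. General translation falls, while translation of the Atf4 message rises, and Atf4 with C/EBP partners then binds composite elements at genes of amino acid synthesis, amino acid uptake and cell fate. mTORC1, the complex that INK128 inhibits, also raises Atf4 protein in growing cells, and the targets Ddit4, Sesn2 and Trib3 in turn restrain mTORC1 or Akt. ATAC-seq reports how open these loci were and not how much of the message or protein was made.

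The promoters of Asns, Chac1, Phgdh and Ddit4 are printed because the first pair holds the core of the composite Atf4 element and the second pair had a start interval that was lower in both clones in one of the tables. Each line gives the 250 bases before the transcription start, from RefSeq on GRCm38.p6, read 5′ to 3′ on the gene's strand. Capitals mark TGATGNAA, the core of the C/EBP-ATF response element (CARE), or its reverse complement.
Asns, chr6:7693210-7693459, minus strand: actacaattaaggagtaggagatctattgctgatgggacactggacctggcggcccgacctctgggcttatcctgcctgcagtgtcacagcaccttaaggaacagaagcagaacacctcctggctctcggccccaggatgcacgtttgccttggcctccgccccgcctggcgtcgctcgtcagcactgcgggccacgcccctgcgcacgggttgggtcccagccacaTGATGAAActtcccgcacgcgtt
Chac1, chr2:119350992-119351241, plus strand: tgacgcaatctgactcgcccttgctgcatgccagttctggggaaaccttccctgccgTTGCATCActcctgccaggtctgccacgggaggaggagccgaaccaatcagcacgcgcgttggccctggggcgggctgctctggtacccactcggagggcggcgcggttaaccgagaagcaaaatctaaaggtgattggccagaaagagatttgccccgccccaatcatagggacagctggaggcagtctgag
Phgdh, chr3:98339970-98340219, minus strand: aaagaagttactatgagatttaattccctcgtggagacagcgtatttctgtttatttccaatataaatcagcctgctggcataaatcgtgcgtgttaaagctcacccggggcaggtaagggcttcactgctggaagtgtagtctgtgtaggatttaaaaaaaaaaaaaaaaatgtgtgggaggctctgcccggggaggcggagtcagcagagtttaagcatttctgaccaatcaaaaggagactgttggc
Ddit4, chr10:59951771-59952020, minus strand: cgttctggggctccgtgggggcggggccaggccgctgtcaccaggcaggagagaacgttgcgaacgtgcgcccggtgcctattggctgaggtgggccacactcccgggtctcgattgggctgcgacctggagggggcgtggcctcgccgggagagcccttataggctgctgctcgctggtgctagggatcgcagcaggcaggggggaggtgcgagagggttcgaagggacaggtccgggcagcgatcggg

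All 10 genes had a promoter window of 300 bases in RefSeq (250 before and 50 after the start), and Atf5 and Psat1 had more than 1 start, which made 12 windows. The CARE core, searched on both strands, was found in 3 of the 12 windows, those of Asns, Chac1 and Trib3, against 3.97% of all 32851 windows and 3.6% of those of protein-coding genes. At Asns, which encodes asparagine synthetase, the match began 23 bases before the start. At Chac1, which encodes an enzyme that breaks down glutathione, it lay on the opposite strand and began 193 bases before the start. At Trib3 it read TTACATCA, the core on the opposite strand, and began 14 bases after the start. All 3 matches lay inside an interval of both tables. None of the 12 windows held TGACGTCA (the cAMP response element, in 1.79% of all windows), CACGTG (the E-box, in 7.15%) or GTCTAGAC (a palindromic Smad element, in 0.213%), each on both strands.

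Values are the authors' normalized signal, in which the reads of an interval are scaled by a factor for the library, and the intervals printed here all have the same width, so levels may be compared between genes. Reads within intervals ran from 11.8 to 16.5 megareads per library in Ctrl and from 11.5 to 20 megareads in Paused, where each Smad2_KO1 library was deeper than each WT library. The start of Smad2 itself held 313 to 410 (WT), 301 to 398 (Smad2_KO1) and 330 to 379 (Smad2_KO2) in Ctrl; the deleted stretch is not given in the sources used here, so this interval does not check the knockout. Each of the 7 stem cell markers examined (Pou5f1, Nanog, Sox2, Klf4, Esrrb, Zfp42, Tfcp2l1) had an interval, with WT means of 52.1 to 468 in Ctrl, but so did each of the 15 markers of primitive endoderm, trophoblast, mesendoderm and fibroblasts, at 16 to 297, so open intervals alone did not separate these cell types. At the strongest interval of each marker, the clones were lower in both tables at T, a mesendoderm factor (log2 difference -0.73 and -0.85 in Ctrl, -0.52 and -0.55 in Paused), and at Thy1, a fibroblast surface marker (-0.36 and -0.37, -0.41 and -0.39). In Paused they were also lower at the collagen gene Col1a1 (-0.37 and -0.33) and higher at Klf4 (0.58 and 0.4), there at another interval than in Ctrl. All 4 were called as defined below. Markers of the same cells did not all follow. In Paused the fibroblast markers Col1a2 (0.75 and 0.51) and Postn (0.06 and 0.28) were not lower. Pou5f1 was not higher (-0.41 and -0.32), and none of these was called. The mesendoderm markers Eomes and Mixl1 were not called in either table. The part of the called shifts in the results was not tested. Libraries of the clones that carry the same replicate number were close to each other. The chi-square per degree of freedom of their reads had a median of 1.142 in Ctrl (1.016 to 1.27) and 1.026 in Paused (1.001 to 1.074), against medians of 1.282 (1.11 to 1.748) and 1.294 (1.111 to 1.925) between replicates of a line. In Paused the replicate 2 libraries of Smad2_KO1 and Smad2_KO2 agree within sampling noise; whether they are separate samples was not tested. Counts are also given with the clone libraries of each number averaged to 1 sample.

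An interval was called in both clones when limma gave an adjusted p under 0.05 against WT in each clone, in the same direction, with Benjamini-Hochberg adjustment over all tested intervals of the table. In Ctrl, 5 of 155 tested intervals around the 10 genes were called, 2 higher and 3 lower in the clones, against 7.15% of all 282089 intervals (3.95% higher and 3.2% lower). In Paused, 19 of 133 were called, 12 higher and 7 lower, against 13.9% of all 260539 (9.01% higher and 4.92% lower). The members' shares were 3.23% and 14.3%, the first below the background and the second near it. The tested member intervals had a median log2 difference (mean of the clones) of 0.05 in Ctrl and of 0.09 in Paused, against 0.077 and 0.115 over all intervals. Differences are those of log2(value + 1), so they come out too small where the signal is low. With same-numbered clone libraries averaged to 1 sample, 10 member intervals were called in Ctrl, against 13% of all intervals, and 24 in Paused, against 19.8%. That fit asks for an adjusted p under 0.05 in 1 comparison and not in each clone, so its counts cannot be set against the 5 and 19.

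The calls sorted by level. In Paused the 12 higher intervals had WT means of 9.32 to 77.9 and the 7 lower ones 98.2 to 728. All intervals shared that slope: their median log2 difference fell from 0.36 in the lowest decile of the level to -0.14 in the highest decile in Paused, and from 0.23 to -0.07 in Ctrl. In the highest decile in Paused, 6 of 22 member intervals (27.3%) were lower, against 18.1% of all intervals of that decile. The split also moved with the scaling: with DESeq2 size factors 9 were higher and 13 lower, with TMM factors 9 and 12, with library totals 13 and 2, and with loess offsets along the level 9 and 1. In Ctrl the same 4 scalings gave 2 and 5, 2 and 5, 3 and 2, and 2 and 1. Over all intervals the higher share of the Paused calls was 64.7% in the fit reported and 41%, 43.8%, 71.3% and 47.8% with these scalings. In Ctrl it was 55.2%, against 37.4%, 39.4%, 57.9% and 40.9%. Of the 7 lower intervals none was called with loess offsets, and of the 12 higher ones 7 were. DESeq2 called 2 of the 7 and 5 of the 12, and edgeR 5 and 11.

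**Figure D1:**
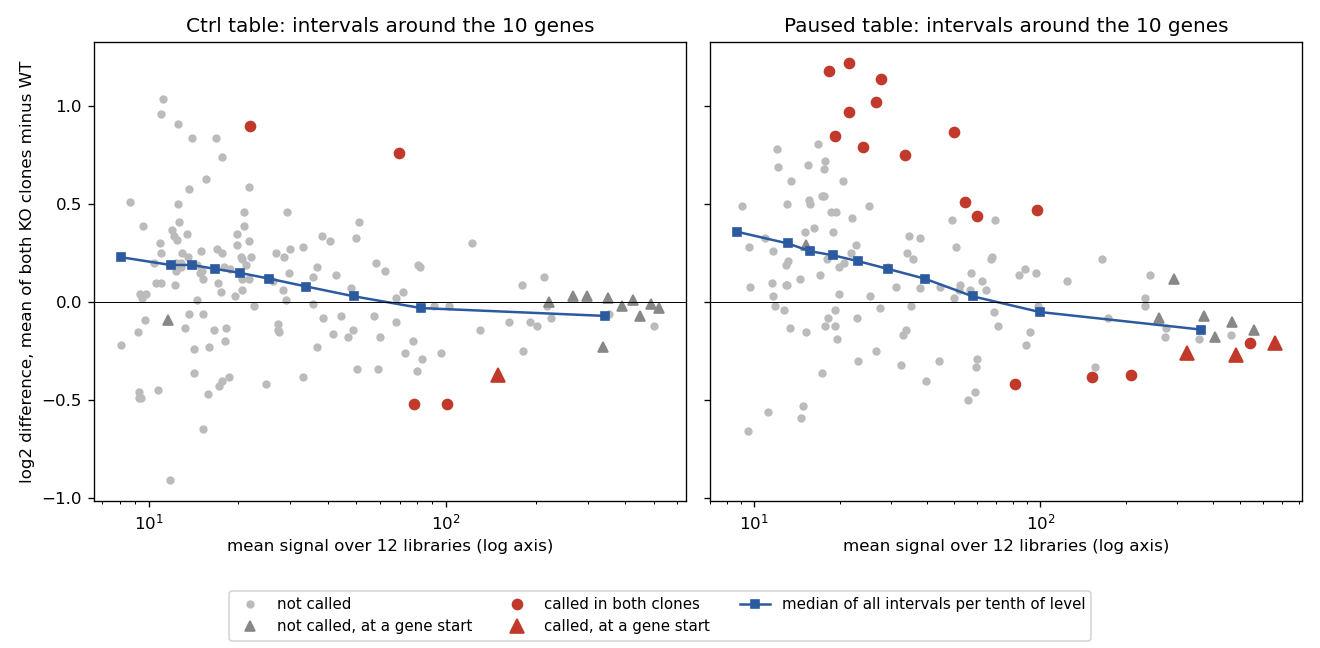
Each point is an interval around the 10 genes, with its mean signal over 12 libraries on a log axis and its log2 difference between the mean of both clones and WT; red marks calls in both clones, triangles mark gene starts, and blue squares give the median of all intervals of the table per decile of the level. In Paused the 12 higher calls lie at low and middle levels and the 7 lower calls at high levels, along the slope that all intervals show.

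No interval was called between the clones under limma: 0 member intervals passed in either table, as did 0 of all intervals. That fit shares 1 spread with the WT libraries, which varied more, so differences between the clones could be missed. At an unadjusted p under 0.05 limma marked 8 member intervals in Ctrl (5.16%, against 3.28% of all) and 0 in Paused (against 1.97% of all).

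Atf4 stood apart from its targets. None of the intervals used here lay within 1 kb of the gene (chr15:80255184-80257545), and its window held 3 intervals in Ctrl and 4 in Paused, all downstream. The gene sat in a stretch without intervals of 41.9 kb in Ctrl and 39.8 kb in Paused, which also holds the starts of Mief1 and Rps19bp1. The median distance between neighbouring intervals was 3462 bases in Ctrl and 3654 in Paused, and 3.19% and 4.28% of the gaps were at least as long. By comparison, 54.8% (Ctrl) and 54.2% (Paused) of 17492 protein-coding genes with a RefSeq promoter window had an interval in it. Why no interval lay there was not tested.

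The strongest interval in the Atf4 window lay 17 kb downstream of its start, outside protein-coding genes. For WT, Smad2_KO1 and Smad2_KO2 its signal was 82 ± 13.6, 69.6 ± 4.31 and 66.5 ± 11 in Ctrl, and 50.9 ± 10.3, 51.5 ± 3.25 and 53.8 ± 12.4 in Paused (SD, n = 4 libraries each). The clones were not called against WT in either table (adjusted p 0.339 and 0.183 in Ctrl, 0.9 and 0.789 in Paused, limma). In WT the Ctrl libraries read 99.3, 85.1, 67.9 and 75.5 and the Paused libraries 63.7, 53.7, 46.4 and 39.7, so all 4 Paused values lay below all 4 Ctrl values. After the shift of all matched intervals between the tables the difference was -0.77 (log2). The tables were normalized separately and only this difference of means is given for pausing, with no test. In the Atf4 window 1 of the 3 Ctrl intervals passed in Smad2_KO1 alone, and 0 were called in both clones. The lowest log2 difference there, as the mean of the clones, was -0.91, also the lowest of all tested Ctrl member intervals.

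Within 1 kb of the gene body, each of the other 9 genes had its strongest Ctrl interval at its own start. In WT the order in Ctrl was Atf5 (528 ± 37.1), Ddit3 (492 ± 33.8), Ddit4 (466 ± 69), Psat1 (425 ± 48.4), Chac1 (371 ± 29.6), Sesn2 (295 ± 25.5), Asns (265 ± 30.5), Trib3 (221 ± 23.5) and Phgdh (177 ± 12.6; SD, n = 4). Each was above 93.6% or more of all intervals of the table. Neighbours in that order overlapped in their library values, except Chac1 (329 to 391) and Sesn2 (266 to 326).

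**Figure D2:**
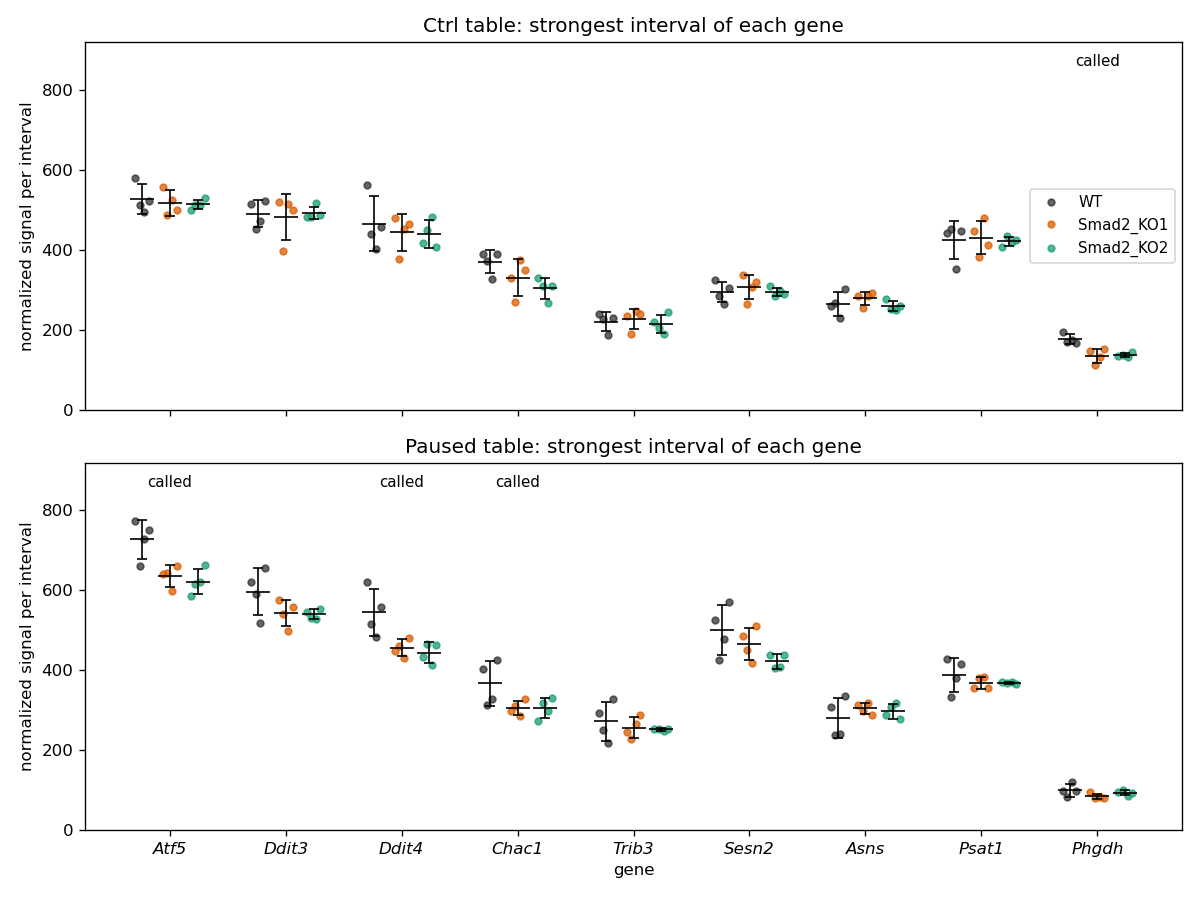
Normalized signal of the strongest interval of each gene (within 1 kb of the gene body), by line, in Ctrl (top) and Paused (bottom); points are single libraries, bars the mean with SD (n = 4), and "called" marks a call in both clones. In Ctrl Phgdh is called, with all 8 knockout libraries below WT, and in Paused Atf5, Ddit4 and Chac1 are called, each lower in the clones. Sesn2 and Phgdh have a different interval in each table.

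Among the transcription factors, Atf5, a relative of Atf4 that is itself translated under stress, shared its start interval with the neighbouring gene Nup62, which encodes a nuclear pore protein. In Ctrl the clones differed little from WT there (518 and 514 against 528; adjusted p 0.861 and 0.823, limma). In Paused the WT libraries read 773, 660, 729 and 751, those of Smad2_KO1 642, 643, 598 and 661, and those of Smad2_KO2 587, 615, 620 and 663. The groups overlapped only in that the highest library of each clone (661 and 663) read just above the lowest WT library. The log2 difference was -0.19 in Smad2_KO1 and -0.23 in Smad2_KO2 (SE 0.07 each, adjusted p 0.0474 and 0.0195, limma). The median of its level decile was -0.14, and with loess offsets the difference was 0.01. The call remained without WT replicate 2 or Smad2_KO2 replicate 4 and was lost without any of the other 10 libraries (adjusted p up to 0.155), with library totals (0.0553), edgeR and DESeq2.

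In WT the same Atf5 interval was higher in Paused, by 0.38 on the log2 scale after the shift, with all 4 Paused values above all 4 Ctrl values. Strong intervals in general gained, by a median of 0.19 in the highest decile, and relative to its own decile the Atf5 interval differed by 0.19. The difference in the clones was 0.19 and 0.16. A further Atf5 window interval, 8.4 kb upstream and inside Il4i1b and Nup62, was also above in WT (0.29).

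Ddit3, which encodes the stress factor CHOP, showed no call at its start. In Ctrl the means were 492, 484 and 493 for WT, Smad2_KO1 and Smad2_KO2 (adjusted p 0.867 and 0.973), and in Paused 597, 543 and 540 (adjusted p 0.216 and 0.192, limma). Weak intervals run downstream from the Ddit3 body into Mars1, the gene of methionyl-tRNA synthetase, and some of them were higher in the clones. In Paused 4 of the 7 intervals between 4 and 15 kb from the start were called higher, and in Ctrl 1 of 6. Over all tested intervals 9.01% were called higher in Paused and 3.95% in Ctrl. The stretch from 4 to 15 kb was not set in advance, so these counts describe it and do not test it.

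In the Ddit3 body, at chr10:127295012-127295212, the Paused libraries read 15.1, 6.44, 10.8 and 11.9 in WT, 27.6, 25.4, 25.9 and 30.8 in Smad2_KO1 and 28, 36.8, 19.1 and 19.7 in Smad2_KO2. All 8 knockout values lay above all 4 WT values. On the log2 scale the clones differed from WT by 1.29 and 1.16 (SE 0.25 each, adjusted p 0.000348 and 0.00109, limma), the highest of the member intervals in Paused. Inside Mars1, 12.2 kb from the Ddit3 start, WT read 12.9, 18.2, 20.5 and 9.27, Smad2_KO1 31.4, 32.6, 47.5 and 25.8, and Smad2_KO2 26, 35.2, 39.3 and 33.9, again without overlap. There the difference was 1.14 and 1.13 (SE 0.23 each, adjusted p 0.000447 and 0.000519). Both intervals were called under each of the 4 other scalings and with each of the 12 libraries left out in turn.

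The last of these intervals, 14.9 kb from the start and inside Mars1, was called in both tables. In Ctrl the means were 14.4 ± 8.1 for WT, 25.2 ± 7.6 for Smad2_KO1 and 26.1 ± 4.62 for Smad2_KO2, with overlapping libraries. The clones differed from WT by a log2 value of 0.86 and 0.95 (SE 0.27 each, adjusted p 0.0271 and 0.0146), and the call was lost without WT replicate 1 or 3, Smad2_KO1 replicate 1, 2 or 3 or Smad2_KO2 replicate 2 (adjusted p up to 0.131), with loess offsets (0.0757) and with DESeq2. In Paused the means were 32.1 ± 9.1, 57.7 ± 9.49 and 59.9 ± 11.9 (SD, n = 4), a difference of 0.85 and 0.9 (SE 0.18 each, adjusted p 0.000772 and 0.00044) that was called with each library left out in turn. The fourth called interval, 8.68 kb from the start, was named after its values were seen. Its means in Paused were 12.2, 23.6 and 21.3 (adjusted p 0.00823 and 0.0246), and its call was lost with loess offsets, with DESeq2, and without WT replicate 1 or 2 or Smad2_KO2 replicate 3 (up to 0.104).

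**Figure D3:**
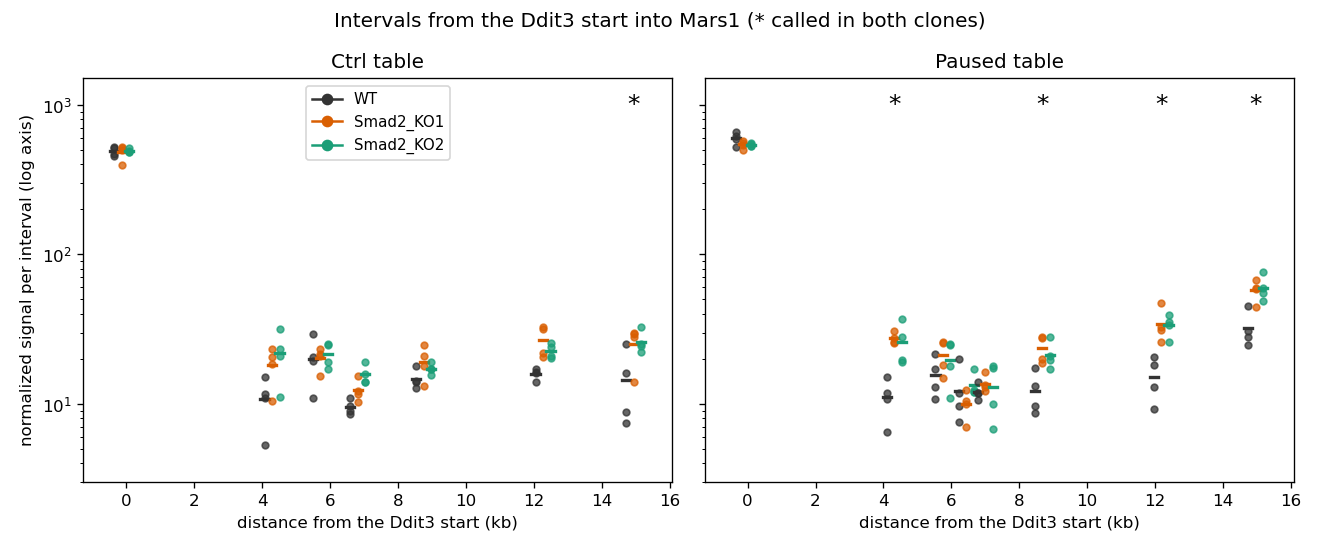
Normalized signal (log axis) of the intervals from the Ddit3 start to 15 kb downstream, by distance from the start in kb; points are single libraries, short bars the means of 4, and asterisks mark calls in both clones. The start interval lies near 500 in all 3 lines, while the downstream intervals lie mostly below 60. In Paused 4 of the 7 downstream intervals are called higher in the clones, in a stretch that was not set in advance.

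Among the restraints on mTOR, Ddit4 (also called Redd1), which holds back mTORC1 through the TSC complex, changed at its start in Paused. WT read 620, 517, 484 and 558, Smad2_KO1 449, 462, 431 and 482, and Smad2_KO2 432, 466, 412 and 464. All 8 knockout libraries lay below all 4 WT libraries. The log2 difference was -0.25 and -0.29 (SE 0.08 each, adjusted p 0.0224 and 0.00845, limma). With loess offsets it was -0.08, not called, and the call was also lost without WT replicate 1 or 4 or Smad2_KO1 replicate 1 or 3 (adjusted p up to 0.0881). In Ctrl the means at the start were 466, 444 and 440 (adjusted p 0.7 and 0.652), and the WT pausing difference was 0.15, with overlapping libraries.

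An interval 15.5 kb downstream of the Ddit4 start, outside protein-coding genes, was higher in the clones in both tables. In Ctrl (chr10:59936160-59936360) WT read 45.9, 56.4, 44.9 and 41, Smad2_KO1 87.2, 94.6, 68.4 and 82, and Smad2_KO2 75.2, 88.3, 63.7 and 84.5. The groups did not overlap, and the clones differed from WT by 0.81 and 0.71 on the log2 scale (SE 0.15 each, adjusted p 0.000163 and 0.00077, limma), called with each library left out in turn and under each of the 4 scalings. In Paused the means were 77.9 ± 12.9, 113 ± 14.5 and 102 ± 14.4 (SD, n = 4), and the difference was 0.54 and 0.39 (SE 0.13 each, adjusted p 0.00375 and 0.0336). That call was lost with size factors (adjusted p 0.109) and with TMM factors (0.0946), and without WT replicate 1 or 4 or Smad2_KO2 replicate 2 or 3 (up to 0.121), and with DESeq2. In WT the interval rose with pausing by 0.63, with all 4 Paused values above all 4 Ctrl values.

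Lower intervals in the Ddit4 window lay further out. In Ctrl an interval 18.1 kb upstream read 98 ± 5.5 for WT, against 67.9 ± 9.91 for Smad2_KO1 and 68.7 ± 5.56 for Smad2_KO2 (SD, n = 4), with all 8 knockout libraries below WT. The difference was -0.53 and -0.51 (SE 0.14 each, adjusted p 0.00642 and 0.00973) and was called with each library left out in turn. In Paused an interval 20.6 kb downstream read 179 ± 11.9, 136 ± 10.5 and 138 ± 7.46, a difference of -0.39 and -0.37 (SE 0.1 each, adjusted p 0.00662 and 0.0102). It was called with each library left out in turn, and with loess offsets the higher adjusted p was 0.0563.

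Sesn2 encodes a leucine sensor that restrains mTORC1. At its start the Ctrl means were 295, 308 and 295 (adjusted p 0.746 and 0.996, limma). In Paused the strongest interval lay 0.689 kb inside the gene, with means of 501, 466 and 423, and passed in Smad2_KO2 alone (adjusted p 0.425 and 0.0402); the difference between the clones was not called. Inside the gene, 4.43 kb from the start, the Ctrl libraries read 140, 103, 128 and 135 in WT, 79.5, 79.2, 73.1 and 86.6 in Smad2_KO1 and 95.2, 83.7, 117 and 91.6 in Smad2_KO2. The Smad2_KO1 libraries lay below WT while 1 Smad2_KO2 library overlapped it. On the log2 scale the clones differed from WT by -0.65 and -0.38 (SE 0.13 each, adjusted p 0.000438 and 0.0444), and the call was lost without any of 7 libraries (WT replicates 1, 3 and 4, Smad2_KO1 replicate 1, Smad2_KO2 replicates 1, 2 and 4), with adjusted p up to 0.161, with library totals (0.0545) or loess offsets (0.0909), and with DESeq2.

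Trib3, a pseudokinase that binds Akt and Atf4, had means at its start of 221, 229 and 215 in Ctrl and 272, 256 and 252 in Paused, with no call. In Paused 3 of its window intervals were higher and 1 was lower. The highest lay inside the neighbouring gene Rbck1, 16.7 kb from the Trib3 start. Its WT libraries read 7.56, 11.8, 8.63 and 9.27, those of Smad2_KO1 14.2, 23.6, 27.6 and 28.8, and those of Smad2_KO2 17, 21.8, 21.3 and 26.3. The groups did not overlap, the log2 difference was 1.22 and 1.13 (SE 0.26 each, adjusted p 0.000892 and 0.00196, limma), and the call held with each library left out in turn. The lower interval, 5.96 kb upstream of the start, had means of 243, 196 and 186, a difference of -0.32 and -0.41 (SE 0.12 each, adjusted p 0.0456 and 0.0129), lost without WT replicate 2 or 4, Smad2_KO1 replicate 1 or 2 or Smad2_KO2 replicate 1, 2 or 3 (up to 0.255), with library totals (0.0676), loess offsets (0.21) and DESeq2.

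Chac1 was lower at its start in both clones in Paused. WT read 404, 312, 328 and 426, Smad2_KO1 299, 310, 286 and 328, and Smad2_KO2 274, 319, 299 and 331. The lower WT libraries overlapped the knockout libraries. The clones differed from WT by a log2 value of -0.25 and -0.26 (SE 0.09 each, adjusted p 0.0482 and 0.047, limma), near the threshold. The call held without WT replicate 2 or 3 and was lost without any of the other 10 libraries (adjusted p up to 0.204), with same-numbered clone libraries averaged, with library totals (adjusted p 0.0689), with DESeq2, and with loess offsets (-0.09). In Ctrl the means were 371, 331 and 304, and the interval passed in Smad2_KO2 alone (adjusted p 0.248 and 0.0412). This is the interval that holds the CARE core of the printed Chac1 sequence.

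Among the enzymes of amino acid synthesis, Asns showed no difference past the threshold at its start, where the CARE core lies. In Ctrl WT read 260, 268, 229 and 303, Smad2_KO1 285, 255, 285 and 293, and Smad2_KO2 278, 253, 250 and 259 (adjusted p 0.621 and 0.916, limma). In Paused the means were 280 ± 49.4, 304 ± 13.6 and 297 ± 18.5 (adjusted p 0.332 and 0.496). With loess offsets the Paused start was called higher in the clones (0.27, adjusted p 0.0284). In Paused 2 weak intervals inside the gene were higher in the clones. At the one 18.1 kb from the start the means were 12.7 ± 4.16, 24.6 ± 8.74 and 27.2 ± 8.16 (SD, n = 4), a log2 difference of 0.9 and 1.04 (SE 0.26 each, adjusted p 0.013 and 0.00443). Its call was lost without WT replicate 1 or Smad2_KO1 replicate 2 (adjusted p up to 0.0971), and with loess offsets (0.0691).

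Psat1, a transaminase of serine synthesis, had start means of 425, 432 and 422 in Ctrl and 389, 369 and 368 in Paused, with no call. An interval 30 kb downstream of the start read 10.8, 21.5, 22.7 and 9.27 in Paused WT, 28.5, 27.2, 29.4 and 26.8 in Smad2_KO1 and 29, 33.8, 43.8 and 36.1 in Smad2_KO2. All knockout values lay above WT, and the log2 difference was 0.86 and 1.19 (SE 0.23 each, adjusted p 0.00744 and 0.000391, limma), called with each library left out in turn but not with DESeq2. In WT this interval was also the one that fell furthest with pausing, from 26.7, 31.4, 24.1 and 33.4 in Ctrl, by 0.98 on the log2 scale. In Smad2_KO1 the pausing difference was -0.37, with the Paused values also wholly below Ctrl. It was -0.15 in Smad2_KO2, with overlap. The knockout difference in Paused and the WT fall use the same 4 WT Paused values, so they are not separate observations. A further interval 16.6 kb upstream was lower in Paused (98.2, 71.2 and 75; adjusted p 0.0116 and 0.0415), lost without any of 7 libraries (WT replicates 3 and 4, Smad2_KO1 replicates 1 and 3, Smad2_KO2 replicates 1, 2 and 3; up to 0.128), with library totals (0.0681), loess offsets (0.0737) and DESeq2.

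Phgdh, the first enzyme of serine synthesis from glycolysis, had the one start interval called in Ctrl. WT read 195, 171, 175 and 167, Smad2_KO1 147, 112, 132 and 152, and Smad2_KO2 136, 137, 133 and 146. All 8 knockout libraries lay below all 4 WT libraries. The log2 difference was -0.39 and -0.36 (SE 0.11 each, adjusted p 0.0161 and 0.0282, limma), against a median of -0.07 in its level decile. The call was lost with loess offsets (-0.32, adjusted p 0.0551) and without WT replicate 1, Smad2_KO1 replicate 2 or Smad2_KO2 replicate 1, 2 or 3 (up to 0.0908), and with DESeq2. The interval covers the last bases of the printed Phgdh sequence and the start itself, and has no matched interval in Paused. There the nearest interval, 0.225 kb inside the gene, had means of 70.7, 65.5 and 69.5 (adjusted p 0.7 and 0.988), and the strongest one, at the far end of the gene, 99.3, 84.3 and 93.2 (adjusted p 0.214 and 0.697).

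To follow pausing, intervals of the tables were matched when their overlap covered 50% or more of both, which gave 215826 pairs, 107 of them around the 10 genes. The pausing difference is the mean log2(value + 1) in Paused minus that in Ctrl, less the median over all pairs (0.082 for WT, 0.104 for Smad2_KO1, 0.11 for Smad2_KO2). In WT the member median was -0.02, with quartiles of -0.29 and 0.18, against quartiles of -0.3 and 0.26 over all pairs. All 4 Paused values lay above all 4 Ctrl values, after the shift, at 8 member pairs, against 9.8% of all pairs, and below at 9, against 7.83% of all pairs. The members' shares, 7.48% and 8.41%, were near these. In Smad2_KO1 the member median was -0.01, with 13 pairs above (background 11.6%) and 14 below (10.7%), and in Smad2_KO2 -0.03, with 14 above (10.9%) and 16 below (9.12%). No difference between lines in the pausing difference was tested.

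By gene, the WT medians ran from -0.28 at Atf4 (2 pairs), -0.26 at Ddit4 (13 pairs) and -0.25 at Psat1 (7 pairs) to 0.15 at Trib3 (15 pairs). The start intervals with a match ran from -0.21 at Psat1 to 0.38 at Atf5, and of these 7 Atf5 alone had Paused values wholly above Ctrl. The largest rises were at weak intervals, whose libraries overlapped once the shift of 0.082 was taken off: 1.14 at the Mars1 interval described above, 1.07 in the Sesn2 window and 0.97 in the Chac1 window. The Sesn2 one read 4.27, 3.58, 10.9 and 8.63 in Ctrl and 11.9, 23.6, 10.8 and 17.2 in Paused. The Chac1 one read 10.7, 12.5, 29.6 and 18.3 in Ctrl and 33.5, 31.1, 43.2 and 34.4 in Paused, values that before the shift do not overlap.

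The largest falls in WT were the Psat1 interval (-0.98), an interval 2.83 kb downstream of the Ddit4 start (-0.96) and a weak one in the Sesn2 window (-0.89). At the Ddit4 interval WT read 18.2, 19.7, 41.6 and 17.2 in Ctrl and 12.9, 10.7, 15.1 and 9.27 in Paused, wholly below, and the difference in the clones was -0.88 and -0.58, also wholly below. The Sesn2 one read 10.7, 16.1, 17.5 and 12.9 in Ctrl and 6.48, 11.8, 6.47 and 6.62 in Paused, with overlap. An Asns interval 2.89 kb upstream of the start, named after its values were seen, was wholly above in each line: in WT it read 24.6, 10.8, 20.8 and 18.3 in Ctrl and 33.5, 32.2, 28.1 and 35.8 in Paused, a difference of 0.74, and in the clones 0.87 and 0.77.

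**Figure D4:**
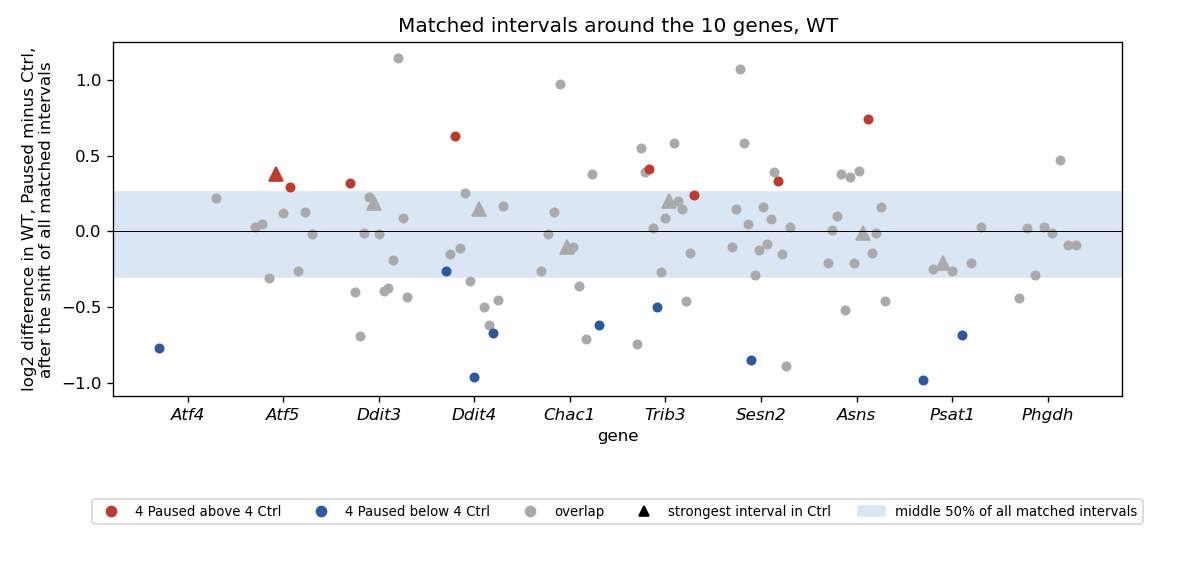
Pausing difference in WT (log2, Paused minus Ctrl, less the shift of all matched intervals) of the 107 matched intervals, by gene; red marks intervals with all 4 Paused values above all 4 Ctrl values, blue those with all 4 below, grey overlap, triangles the strongest Ctrl interval, and the band the middle 50% of all matched intervals. The 8 red and 9 blue points are spread over the genes, and the start intervals with a match lie near or within the band, with Atf5 the highest.

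Of 106 matched pairs tested in both tables, 3 were called in Ctrl and 17 in Paused, and 2 in both: the Ddit4 interval 15.5 kb downstream and the Mars1 interval, both higher in the clones. Of the Ctrl member intervals 31.8% had no match in Paused, against 28% of all Ctrl intervals, and of the Paused member intervals 20.7%, against 20.7% of all.

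The wider response was read from 57 further genes, listed with earlier results of these data known. They were eIF2 alpha kinases, eIF2 and eIF2B subunits, phosphatase subunits, regulators of the kinase Gcn2 and other transcription factors. Enzymes and transporters of amino acids, tRNA synthetases, other reported targets and unfolded protein response genes completed the list. In Ctrl 65 of 971 tested intervals around them were called (6.69%), 51 higher and 14 lower. In Paused 121 of 906 were called (13.4%), 82 higher and 39 lower. Both totals were near the backgrounds of 7.15% and 13.9%. The Ctrl split was not: 5.25% were higher and 1.44% lower, against 3.95% and 3.2% of all intervals. How this split moves with the scaling is not reported here, and the intervals were not matched for level. Over all Ctrl intervals the higher share of the calls ran from 37.4% to 57.9% with the other scalings. In Paused the split was 9.05% and 4.3%, against 9.01% and 4.92%. Mars1 lies in the list, and 16 of these intervals are also counted for Ddit3. Of the 56 genes with an interval within 1 kb, the strongest was called at 2 in Ctrl and 10 in Paused. The 2 in Ctrl went opposite ways, Sars lower and Impact, a regulator of Gcn2, higher. At Impact the log2 difference was 0.39 and 0.42 (adjusted p 0.0139 and 0.00919, limma). All 10 in Paused were lower in the clones, with WT means of 274 to 788. They lay in the highest decile of the level, where 18.1% of all Paused intervals were called lower and 2.04% higher. In that decile in Ctrl the shares were 6.46% and 1.88%. How these 10 calls move with the scaling or with left-out libraries is not reported here. At Slc3a2, the heavy chain of the cystine and leucine transporters, the Paused means were 460 ± 39.8, 331 ± 44.7 and 354 ± 42.5 (SD, n = 4; log2 difference -0.48 and -0.38, adjusted p 0.00035 and 0.00359, limma). At Eif2b3, a subunit of the eIF2 exchange factor, they were 581 ± 70, 455 ± 45.1 and 458 ± 31.3 (-0.35 and -0.34, adjusted p 0.00305 and 0.00419). At Sars, a seryl-tRNA synthetase gene, the strongest interval was lower in both tables (Ctrl 589, 481 and 473, adjusted p 0.0137 and 0.00828; Paused 580, 473 and 494, adjusted p 0.00494 and 0.0252).

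The counts moved when single libraries were left out. In Ctrl the 5 calls became 3 without Smad2_KO1 replicate 1 or 2 or Smad2_KO2 replicate 1 and 2 without Smad2_KO2 replicate 2, where 5.06% to 5.83% of all intervals were called. In Paused the 19 became 9 without WT replicate 4, 11 without Smad2_KO1 replicate 1 or Smad2_KO2 replicate 3, and 12 without WT replicate 1, Smad2_KO1 replicate 2, or Smad2_KO2 replicate 1 or 2. Over all intervals these 7 refits called 9.68% to 11.3%, against 13.9% with every library.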

How the data were processed

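ATAC-seq libraries were compared within each deposited table. Per the submitters' processing notes, FastQC, Trim Galore, Bowtie2 2.4.1, MACS3 3.0.3, DiffBind 3.16.0 and build mm10 were used; their order and settings, read shifting and duplicate handling are not given in the sources used here. The deposited values are normalized signal, that is reads per interval over 1 factor per library as read from the values, and whole reads were recovered for the count tests (at least 99.42% of values whole in every column, within 0.0051). The authors' log2 fold and p-value columns were not used.

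Intervals with at least 4 libraries at 10 or more were tested on log2(value + 1) with limma 3.58.1 in R 4.3.3, with 1 fit per table, line as the factor and a variance trend. Alternatives used edgeR 4.0.16, DESeq2 1.42.0, other scalings, filters, windows and left-out libraries. Starts, gene bodies and promoter sequences came from RefSeq on GRCm38.p6, the build of mm10.

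The genes and lists were chosen with earlier results of these data known. Values are given for the strongest interval within 1 kb of each gene, up to 5 intervals per direction and table called in both clones, ranked by the smaller clone difference, and the 3 largest pausing differences each way. The search for genes with a pattern like that of Atf4 could not be applied, since Atf4 had no interval within 1 kb.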

Additional observations from a re-analysis of the deposited data

Results flagged for a closer look

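Among 114 groups of 4 libraries at the intervals named or called, 5 held a library far from the other 3 by Dixon's test at its 95% critical value, where chance gives about 5.7. At the Ddit3 start in Ctrl, Smad2_KO1 replicate 2 read 398 against 501 to 520 in the others, and Smad2_KO2 replicate 3 read 517 against 484 to 487. At the Mars1 interval near Ddit3 in Ctrl, Smad2_KO1 replicate 4 read 13.9 against 28.1 to 29.8. At the Psat1 start in Ctrl, WT replicate 3 read 353 against 444 to 454. At the far end of Phgdh in Paused, Smad2_KO1 replicate 1 read 95 against 79.8 to 82.1.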

How the results depend on the processing

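The count of member intervals called in both clones in Ctrl was 5. It was 3 with loess offsets or with each clone fitted with WT alone, 2 at an adjusted p under 0.01, with DESeq2 on recovered reads or in windows of 5 kb or 1 kb, 0 at an absolute log2 difference of at least 1, 19 with the 8 knockout libraries as 1 group, 10 with same-numbered clone libraries averaged, and 2 to 6 with single libraries left out. In Paused it was 19; it was 10 with loess offsets, 5 at an adjusted p under 0.01, 3 at an absolute log2 difference of at least 1, 33 with the 8 knockout libraries as 1 group, 7 with DESeq2, 9 and 7 in windows of 5 kb and 1 kb, and 9 to 18 with single libraries left out. Over all intervals loess offsets called 6.5% in Ctrl and 9.65% in Paused, the knockout libraries as 1 group 17.6% and 28.7%, and DESeq2 3.46% and 7.56%. Smaller windows hold fewer intervals, and stricter thresholds pass fewer. The fits with the knockout libraries as 1 group or averaged make 1 comparison and do not ask for a pass in each clone. For the others the cause was not tested. The edgeR counts were 5 and 16. Calls between the clones stayed at 0 under each limma alternative fitted. The WT pausing median, -0.015, ran from -0.081 to -0.014 with single libraries left out, was 0.067 without centring and -0.077 with centring within level deciles. The SD of the WT member median over libraries, both tables combined, was 0.152. It is a spread over libraries and not that of a mean of 4, so it cannot show whether these moves are small. Over 38 single intervals and 988 refits, 798 kept their side of the threshold, 185 lost the call and 4 gained it. In 1 more a called interval changed sign, the Atf5 start in Paused with loess offsets (0.01). Sign changes at uncalled intervals are not counted, such as the Ddit3 start in Paused (-0.14, and 0.07 with loess offsets). Only the 5 and 19 called intervals had a call to lose. Calls that held with each library left out in turn were 1 of 2 higher and 1 of 3 lower in Ctrl. In Paused they were 6 of 12 and 1 of 7.

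With the replicate number as a block, 5 intervals were called in Ctrl and 20 in Paused. The correlation of deviations between same-numbered libraries exceeded 0.1 in 1 of 12 pairs in Ctrl and 2 of 12 in Paused, all between the clones (1 of 4 and 2 of 4), so the numbers were not taken to pair the libraries. Depth limits the weak intervals, where WT values near 10 rest on about as many reads.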
